A study of Mus musculus with 10 samples.

Results

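The small leucine-rich proteoglycans (SLRPs) are secreted core proteins built around a run of leucine-rich repeats, most of which carry glycosaminoglycan chains. They were examined here as a group of 10 genes, chosen by name: Dcn, Bgn, Aspn and Ecm2, the class I genes and their close relative, Lum, Fmod, Prelp and Omd of class II, Ogn of class III, and Podn. All 10 were found by their symbol among the 25233 entries of the table that have a gene symbol. SLRPs sit on collagen fibrils, where they set fibril diameter and spacing, and they also bind growth factors such as TGFβ and, once released, some innate immune receptors. In the liver, stellate cells and portal fibroblasts are the known main sources of decorin, lumican and biglycan, and SLRP protein is laid down in fibrous septa.

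The study sorted hepatic stellate cells (HSCs), the vitamin A-storing cells of the liver, from C57BL/6J mice and sequenced their RNA in bulk. Hypertrophied HSCs (hypHSCs, n = 5) came from mice on CDAHFD, a high-fat diet that lacks choline and gives its amino acids in defined amounts and that brings on steatohepatitis and fibrosis. Libraries hypHSC 1 and 2 were from mice of 19 weeks after 13 weeks of diet, and hypHSC 3, 4 and 5 from mice of 18 weeks after 12 weeks. Quiescent HSCs (qHSCs, n = 5) came from mice on a standard diet, aged 36 weeks for qHSC 1, 2 and 5 and 34 weeks for qHSC 3 and 4. Diet, age, the strength of the liver digestion, antibiotics in the buffers (CDAHFD livers only) and the sorting gate all changed together between the groups. The gate was on green fluorescence for hypHSCs and on blue for qHSCs. The effects of these differences cannot be told apart. The labels do not say whether each library is a separate mouse, and p-values measure the spread between these preparations.

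The libraries held 30534719 to 43283589 reads on genes with a symbol in hypHSCs and 35640104 to 47317028 in qHSCs. Against their label, hypHSC libraries were low in most of the defining HSC genes and high in those of several, but not all, other cell types. Each count below is to be read beside the 17.8% of all genes tested that were called higher and the 21.7% called lower. Of 13 quiescent HSC markers tested, 12 were lower in hypHSCs and none was higher, and their summed normalized count was 9579 to 21002 in hypHSCs against 454347 to 656844 in qHSCs. All 12 macrophage markers tested were higher, with a sum of 1159370 to 1638170 against 5771 to 125721. Portal fibroblast markers, of which 5 of 7 tested were higher and none lower, summed to 8657 to 20094 against 825 to 6916. Dpt alone made up most of that sum, with a mean of 11234 in hypHSCs and 3022 in qHSCs. Thy1, Pi16 and Clec3b were too low to be tested. Eln and Entpd2 were not called, with log2 fold changes of -0.68 and -1.78. Of the 4 mesothelial markers tested, 3 were higher, with a sum of 553 to 1761 against 135 to 232. All 7 lipid-associated macrophage markers tested were higher, with a sum of 946658 to 1117230 against 5088 to 6700. Of the other lists, 5 of 5 cholangiocyte, 4 of 4 neutrophil and 3 of 6 Kupffer cell markers were higher, 0 of 8 hepatocyte markers were called, 3 of 5 vascular smooth muscle markers were lower, 3 of 7 sinusoidal endothelial markers were higher and 1 lower, 1 of 3 T, NK and B cell markers was higher, and 11 markers of activated HSCs split into 4 higher and 3 lower. Some lists share genes. Krt19 and Krt7 are in both the mesothelial and the cholangiocyte list. Spp1 is in the cholangiocyte, lipid-associated macrophage and activated HSC lists. Cd14 and C1qa are in the macrophage list and in the list of SLRP ligands and receptors used below. Mmp12 is in the lipid-associated macrophage list and in the protease list used below. Pdgfrb, Col1a1, Lox, Eln and Kdr also recur between these lists and those used below. No quiescent HSC, macrophage or portal fibroblast marker was at or under 3 reads in all libraries of a group. The quiescent HSC, macrophage, portal fibroblast and mesothelial sums separate the groups, as the members do, and their part in the results was not tested. In bulk RNA, fewer cells of a type and less RNA per cell cannot be told apart.

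All 10 SLRP genes separated the groups, and 8 of them were lower in hypHSCs. Of the 9 members that passed the filter on low values (at least 10 normalized counts in at least 5 libraries), 8 were called lower and 1, Fmod, was called higher, where a call needed a log2 fold change of 1 or more in either direction with an adjusted p in limma no higher than 0.05. Over all 14630 genes tested, 39.5% were called, 21.7% lower (3177 genes) and 17.8% higher (2602). The split was 4223 lower and 2022 higher with libraries scaled to equal totals, and 6990 and 1472 with Hprt, Pgk1 and Actb as the reference, while it was 3107 and 3494 with DESeq2 and 2550 and 2786 with edgeR on the recovered reads. The reference genes were themselves uneven. Hprt was at 4469 to 8477 normalized counts in hypHSCs and 2294 to 3212 in qHSCs. Pgk1 was at 3171 to 5613 and 1421 to 1852, and Actb ran from 18213 to 296496 within hypHSCs. The median log2 fold change was -4.71 over the 9 members and -0.20 over all genes tested. Aspn, the member that did not pass, was also higher in hypHSCs. With hypHSCs limited to the 3 libraries at 12 weeks of diet, the same 8 members were called lower and Fmod higher. The 5 values of one group did not overlap with those of the other for any of the 10 members, as they did not for 39.5% of all genes tested (22% with hypHSCs lower, 17.6% with hypHSCs higher).

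**Figure D1:**
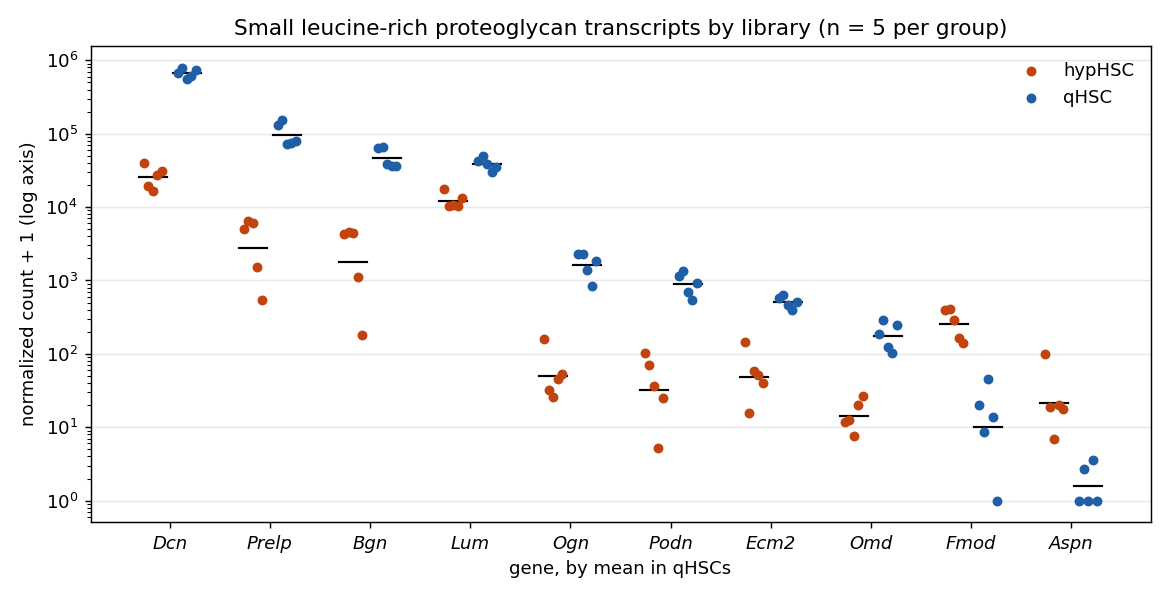
Normalized count + 1 (log axis) of each SLRP gene in each library, hypHSCs in orange and qHSCs in blue, with a bar at the geometric mean of the 5 libraries. The 8 genes on the left are lower in every hypHSC library, and Fmod and Aspn on the right are higher. Bgn, Podn and Aspn spread most widely among the hypHSCs.

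Dcn encodes decorin, the class I proteoglycan with a single chondroitin or dermatan sulfate chain that binds type I collagen and sequesters TGFβ. Its gene lies at chr10:97315362-97354017 on the plus strand (GRCm39). Dcn was at 39405, 19546, 16456, 27143 and 31016 normalized counts in hypHSCs 1 to 5. In qHSCs 1 to 5 it was at 666183, 796986, 549749, 621412 and 740280. Every qHSC library lay far above every hypHSC library, and the spread within each group was narrow beside the gap. The qHSC mean was 25.3-fold higher, and the log2 fold change of Dcn was -4.72 (SE 0.28, n = 5 per group, limma adjusted p = 3.59e-07). Dcn alone took 1.79% to 2.41% of the reads of qHSCs and ranked 4 or 5 among all genes by reads, while in hypHSCs it took 0.0457% to 0.0958% and ranked 126 to 256.

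Bgn encodes biglycan, the X-linked paralog of decorin with 2 chains (chrX:72527207-72539542, plus strand), which in its soluble form can engage toll-like receptors. Bgn was at 4343, 4643, 4471, 1126 and 178 normalized counts in hypHSCs 1 to 5, against 64357, 66632, 38364, 36576 and 36719 in qHSCs. The groups were apart, but hypHSC 4 and above all hypHSC 5 lay well under the other 3 hypHSC libraries. The log2 fold change was -4.71 (SE 0.80, limma adjusted p = 5.89e-04), -3.88 without hypHSC 5 and -3.38 with hypHSC 4 and 5 left out.

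Aspn encodes asporin, a class I protein with a run of aspartates and no glycosaminoglycan chain, which binds collagen and TGFβ (chr13:49697919-49721036, plus strand). Aspn was at 97.0, 17.6, 5.82, 18.9 and 16.6 normalized counts in hypHSCs 1 to 5. In qHSCs 2 and 4 it was at 1.70 and 2.57, from 2 and 3 reads, and no read was found in qHSCs 1, 3 and 5. All qHSC libraries were thus at or under a floor of 3 reads, and hypHSC 1 held most of the signal. Over the groups, 125 reads against 5 gave a ratio of 33.4 after scaling, with an exact 95% interval of 13.95 to 105 that covers counting error only. Without hypHSC 1, which holds 72 of the 125 reads, the ratio was 16.96 (interval 6.83 to 54.4). With no filter beyond 1 read in any library, limma called Aspn higher (adjusted p = 0.00238, where 32.3% of 19373 genes were called and 14.8% were called higher). About 9.12% of the exon bases of Aspn overlap exons of Cenpp on the other strand, and the libraries were not stranded. Cenpp, a centromere protein gene, was at 46.2 to 401 normalized counts in hypHSCs and 10.5 to 40.7 in qHSCs, highest in hypHSC 5 and not in hypHSC 1, and its part in the Aspn reads was not tested.

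Ecm2, a decorin-like matrix protein gene, lies next to Aspn at chr13:49658262-49686265 on the plus strand. Ecm2 was at 146, 14.5, 57.4, 50.4 and 39.3 normalized counts in hypHSCs and at 584, 629, 464, 399.6 and 513 in qHSCs. The highest hypHSC library, hypHSC 1, still fell short of the lowest qHSC library. The log2 fold change was -3.39 (SE 0.50, limma adjusted p = 2.22e-04).

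Lum encodes lumican, a class II proteoglycan with keratan sulfate chains that spaces collagen fibrils (chr10:97401363-97408565, plus strand). Lum was at 17716, 10332, 10588, 10513 and 13175 normalized counts in hypHSCs and at 41979, 50290, 38150, 29805 and 35356 in qHSCs. Both groups were tight and the gap between them was the smallest of the 9 members tested. The qHSC mean was 3.14-fold higher, and the log2 fold change of Lum was -1.66 (SE 0.21, limma adjusted p = 7.29e-05).

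Prelp encodes a class II protein without glycosaminoglycan chains whose basic end binds heparin and heparan sulfate (chr1:133838016-133849141, minus strand). Prelp was at 4955, 6450, 5977, 1507 and 538 normalized counts in hypHSCs and at 133305, 153016, 73531, 74399 and 78351 in qHSCs. As with Bgn, hypHSC 4 and 5 were the lowest, and in qHSCs libraries 1 and 2 were the highest for both genes. The log2 fold change was -5.15 (SE 0.63, limma adjusted p = 6.17e-05), and -4.08 without hypHSC 4 and 5.

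Fmod encodes fibromodulin, the class II proteoglycan closest to lumican, which binds the same site on collagen and takes part in collagen cross-linking (chr1:133964992-133976018, plus strand). Fmod was at 400.2, 407, 290.2, 162 and 138 normalized counts in hypHSCs. In qHSCs it was at 19.0, 7.67, 44.9 and 12.8 in libraries 1 to 4, with no read in qHSC 5. Every hypHSC library thus stood above every qHSC library, in the opposite direction to Lum and Prelp. Mean Fmod was 16.5-fold higher in hypHSCs, with a log2 fold change of 4.64 (SE 0.89, limma adjusted p = 0.00128), or 3.81 without qHSC 5.

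Omd encodes osteomodulin, a keratan sulfate proteoglycan known from bone (chr13:49735938-49746298, plus strand). Omd was at 10.8, 11.4, 6.65, 18.9 and 25.7 normalized counts in hypHSCs, from 8 to 18 reads a library, and at 186, 285, 121, 100.1 and 249 in qHSCs. All 5 hypHSC libraries were low, and unlike for Bgn, hypHSC 4 and 5 were the highest among them. The log2 fold change was -3.62 (SE 0.48, limma adjusted p = 1.06e-04).

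Ogn encodes osteoglycin, or mimecan, the class III member of the set (chr13:49761491-49777977, plus strand). Ogn was at 159, 31.1, 24.9, 44.1 and 52.9 normalized counts in hypHSCs and at 2282, 2324, 1382, 851 and 1839 in qHSCs. As for Aspn and Ecm2, the highest hypHSC library was hypHSC 1. The log2 fold change was -5.02 (SE 0.48, limma adjusted p = 1.10e-05). Exons of Cenpp overlap 18.8% of the exon bases of Ogn, and the part of Cenpp in the Ogn reads was not tested.

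Podn encodes podocan, a more distant SLRP (chr4:107871990-107889287, minus strand). Podn was at 101, 69.4, 34.9, 4.20 and 24.2 normalized counts in hypHSCs and at 1158, 1325, 706, 546 and 910.4 in qHSCs. It was again lowest in hypHSC 4 and 5, with 4 and 16 reads. The log2 fold change was -4.79 (SE 0.69, limma adjusted p = 1.94e-04), -4.13 without hypHSC 4 and -3.80 without hypHSC 4 and 5.

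**Figure D2:**
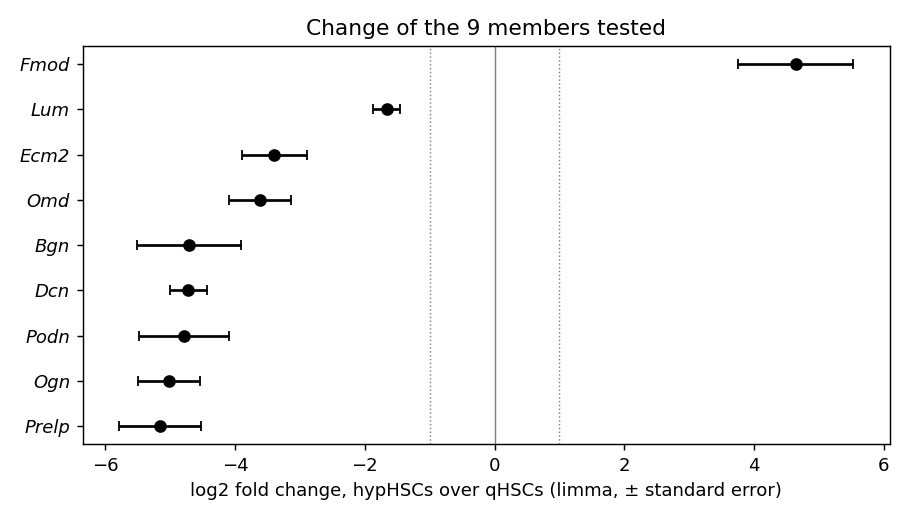
Log2 fold change of the 9 members tested, hypHSCs over qHSCs, with the limma standard error as bars and dotted lines at a log2 fold change of 1 in either direction. Prelp lies at -5.15 and Lum at -1.66, and Fmod, at 4.64, is the 1 gene to the right of 0.

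For each of the 8 members with reads in every library that were lower in hypHSCs, the fold range over libraries was wider in hypHSCs than in qHSCs. Between the highest and lowest hypHSC library, Bgn varied 26.0-fold, Podn 24.1-fold, Aspn 16.7-fold, Prelp 12.0-fold and Ecm2 10.04-fold, while Dcn varied 2.39-fold and Lum 1.71-fold. Among qHSCs the range ran from 1.45-fold for Dcn to 2.84-fold for Omd, leaving out Fmod and Aspn, which reached 0. Bgn, Prelp, Fmod and Podn were all lower in both hypHSC 4 and hypHSC 5 than in hypHSC 1, 2 and 3, whereas Dcn, Lum and Omd were not. The collagen gene Col3a1 had the same low pair, at 22117, 13061, 9828, 5157 and 7426 normalized counts in hypHSCs 1 to 5. The summed quiescent HSC markers did not, at 21002, 10025, 9720, 11008 and 9579. Libraries hypHSC 4 and 5 also held the fewest genes with a read, 14949 and 14028 against 15821 to 16634 in the other hypHSC libraries. Actb was at 61939 and 18213 normalized counts in them, against 201672 to 296496, whereas Hprt and Pgk1 were not low in them. The part of these differences in the member values was not tested.

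Levels were compared between genes as FPKM, computed from the reads of each gene per kilobase of its exons. In qHSCs the order was Dcn at 1383 ± 199 FPKM (SD, n = 5), Prelp at 389 ± 144, Bgn at 192 ± 61.4, Lum at 163 ± 31.9, Ogn at 7.55 ± 2.72, Podn at 5.73 ± 1.96, Omd at 2.06 ± 0.870, Ecm2 at 1.86 ± 0.330, Fmod at 0.114 ± 0.116 and Aspn at 0.00779 ± 0.0110. The library ranges of Bgn and Lum, of Ogn and Podn, of Omd and Ecm2 and of Fmod and Aspn overlapped. In hypHSCs Dcn and Lum stood level by FPKM, at 54.7 ± 18.8 and 51.9 ± 13.2, with Dcn above Lum in 3 of 5 libraries. This order rests on the lengths used, 13033 exon bases for Dcn and 6416 for Lum. By normalized count, Dcn stood above Lum in every hypHSC library. Next by FPKM came Prelp at 14.8 ± 10.2 and Bgn at 11.7 ± 8.42, which overlapped, and then Fmod at 1.89 ± 0.862. Podn, Aspn, Ogn, Ecm2 and Omd lay between 0.288 and 0.161 FPKM on average, and each overlapped with the next. Dcn ranked 21 among 23185 genes by mean FPKM in qHSCs and 724 in hypHSCs, and Lum 208 and 756. The paper's own FPKM values for Dcn are higher in both groups, with ranks nearer the top. The FPKM values and ranks given here are therefore not comparable with those of the paper. With the length of the canonical transcript in place of all exons, Lum stood above Dcn and Bgn above Prelp in 4 of 5 hypHSC libraries each, and Ecm2 above Omd in all 5 qHSC libraries.

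Summed over the 10 members, SLRP transcripts reached 196, 130, 121, 111 and 123 FPKM in hypHSCs 1 to 5 and 2322, 2711, 1730, 1834 and 2125 in qHSCs. The sum was 136 ± 34.1 FPKM in hypHSCs and 2144 ± 394 in qHSCs (SD, n = 5), a 15.7-fold difference with no overlap (log2 difference -3.99, exact two-sided permutation p = 0.00794, the smallest that 5 against 5 allow). The make-up of the sum changed as well. Dcn gave 40.3% ± 10.8 of it in hypHSCs and 65.0% ± 5.51 in qHSCs (exact permutation p = 0.00794, 0.0198 after Benjamini-Hochberg adjustment over the 10 members). Lum gave 38.2% ± 4.19 in hypHSCs and 7.62% ± 0.957 in qHSCs (exact permutation p = 0.00794, adjusted 0.0198). Shares depend on the lengths used. With canonical transcript lengths, Dcn gave 37.4% in hypHSCs and 65.1% in qHSCs, and Lum 43.4% and 9.32%. The share of Bgn was 8.43% ± 6.18 against 8.83% ± 1.598 (exact permutation p = 0.889) and that of Prelp 10.8% ± 7.85 against 17.8% ± 3.61 (p = 0.127), and for neither did the test find a difference. Fmod rose from 0.00595% to 1.37% of the sum (exact permutation p = 0.00794, adjusted 0.0198).

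**Figure D3:**
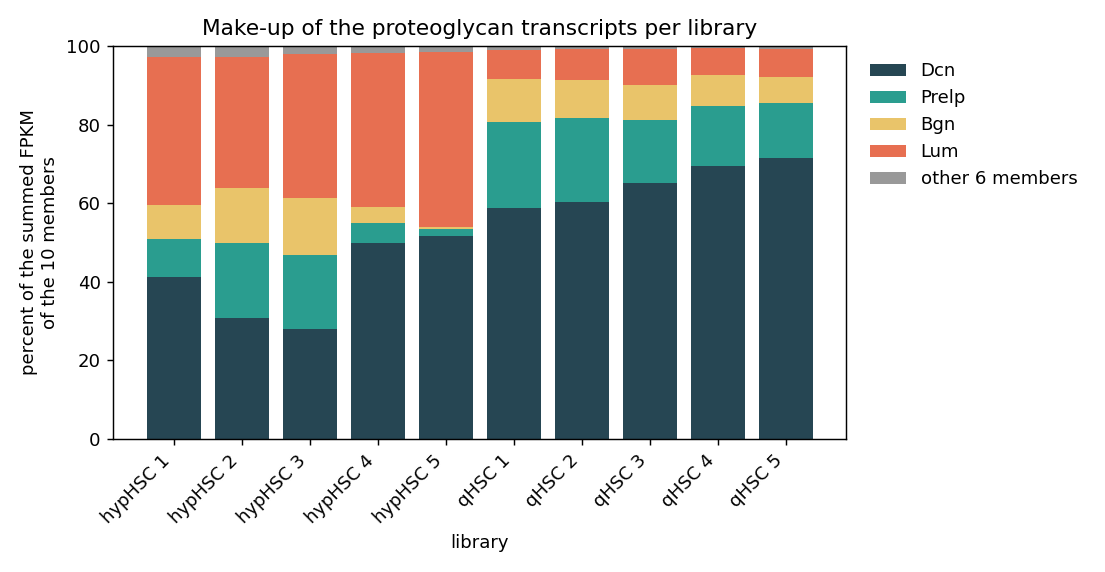
Share of each SLRP gene in the summed FPKM of the 10 members, one stacked bar per library. Dcn fills 58.8% to 71.4% of the bar in qHSCs and 27.9% to 51.7% in hypHSCs, Lum widens from 7.62% to 38.2% on average, and Bgn and Prelp shrink in hypHSC 4 and 5.

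The ratio of each other member to Dcn within a library does not depend on how libraries are scaled, apart from the pseudocount of 1, and 9 such ratios were tested. Lum over Dcn was higher in hypHSCs by 3.06 on the log2 scale, with a mean log2 ratio of -1.06 ± 0.29 against -4.12 ± 0.25 in qHSCs (SD, n = 5, exact permutation p = 0.00794, adjusted 0.0238). Fmod over Dcn and Aspn over Dcn were higher in every hypHSC library than in any qHSC library (both adjusted 0.0238, exact permutation). The size of these differences is not given, because the pseudocount sets the ratio in the libraries at or under 3 reads, all 5 qHSC libraries for Aspn and qHSC 5 for Fmod. With qHSC 5 left out, the log2 ratio of Fmod to Dcn was higher by 8.49. Omd and Ecm2 fell less than Dcn, with log2 ratios higher by 1.10 and 1.32 in hypHSCs (both adjusted 0.0429, exact permutation), although for each the groups overlapped. With single libraries left out, the unadjusted exact permutation p of both rose to 0.0476, and with hypHSC 4 and 5 left out to 0.107. For Bgn, Prelp, Ogn and Podn the log2 ratio to Dcn differed by 0.01, -0.43, -0.30 and -0.07, which the test did not separate from 0 (adjusted p of 0.583 to 1, exact permutation). These values rest on single libraries: without hypHSC 5 the difference was 0.91 for Bgn and 0.23 for Prelp, without hypHSC 4 it was 0.61 for Podn, and without hypHSC 1 it was -0.56 for Ogn. With hypHSC 4 and 5 both left out, Bgn, Prelp and Podn differed by 1.46, 0.76 and 1.05 (unadjusted exact permutation p = 0.0357, 0.143 and 0.0357, where 0.0357 is the smallest that 3 against 5 allow). The Bgn ratio ranged from -7.43 to -1.88 in hypHSCs, on both sides of all qHSC values.

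Dcn was also set against the collagen genes whose fibrils decorin binds. Dcn over Col3a1, the type III collagen gene, was 1.78, 1.497, 1.67, 5.26 and 4.18 in hypHSCs 1 to 5 and 35.02, 44.4, 20.8, 62.7 and 77.1 in qHSCs, a log2 difference of -4.12 (exact permutation p = 0.00794). Col3a1 itself overlapped between the groups, at 9600 to 26445 normalized counts in qHSCs. The log2 ratio of Dcn to Col1a1 differed by -5.95 and that to Col1a2 by -4.596 between hypHSCs and qHSCs (both exact permutation p = 0.00794). For Lum over Col3a1 the log2 difference was -1.06, with overlapping groups (exact permutation p = 0.0317). That p rose to 0.0635 when hypHSC 1, hypHSC 2, hypHSC 3, qHSC 2, qHSC 4 or qHSC 5 was left out, with differences of -1.03 to -0.91. Fmod over Col3a1 was higher in every hypHSC library (exact permutation p = 0.00794), by 4.57 on the log2 scale with qHSC 5 left out.

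**Figure D4:**
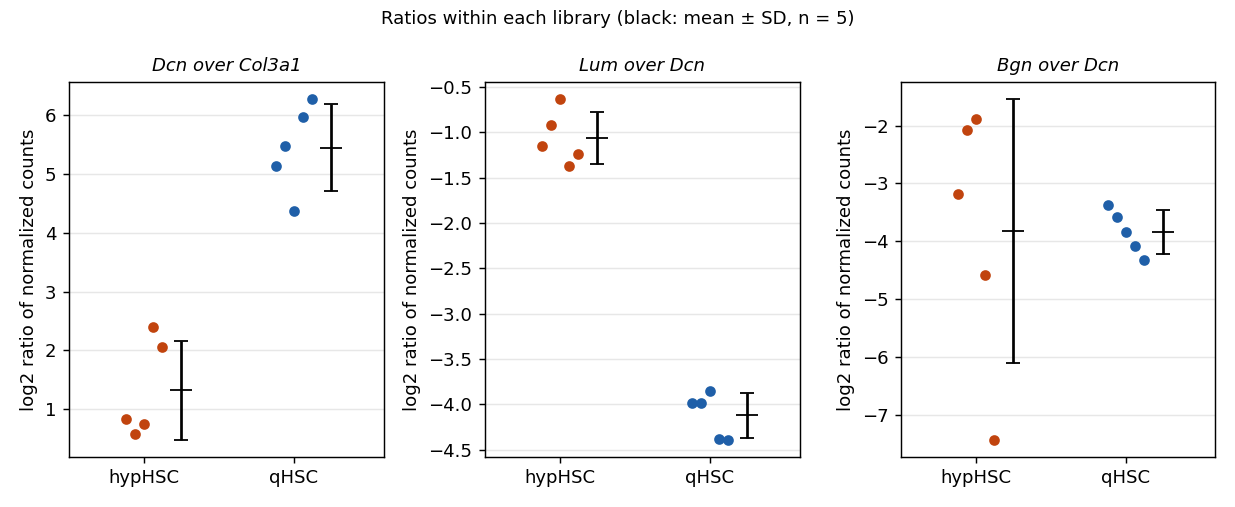
Log2 ratios within each library of Dcn over Col3a1, Lum over Dcn and Bgn over Dcn, with the mean ± SD of the 5 libraries of a group in black. The first ratio differs by -4.12 between hypHSCs and qHSCs and the second by 3.06, both without overlap, while Bgn over Dcn differs by 0.01 and is widely spread in hypHSCs.

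Most SLRP genes lie in small clusters, and members that moved in opposite directions were neighbours. On chromosome 1, Prelp was lower and Fmod, 116 kb away, was higher in hypHSCs. Optc, the opticin gene 2.28 kb from Prelp, had no read in hypHSCs and 3 to 49 reads in qHSCs, in the direction of Prelp. On chromosome 10, Lum lies 47.3 kb from Dcn, and of their neighbours Kera had no read in any library and Epyc had reads in hypHSC 4 alone. On chromosome 13, Ecm2, Aspn, Omd and Ogn follow each other with gaps of 11.7, 14.9 and 15.2 kb, and Aspn was the 1 gene of the 4 that was higher in hypHSCs. Of the other SLRP family genes, Tsku (tsukushi) and Chadl (chondroadherin-like) could be tested and neither was called, with log2 fold changes of -0.56 and -0.96.

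**Figure D5:**
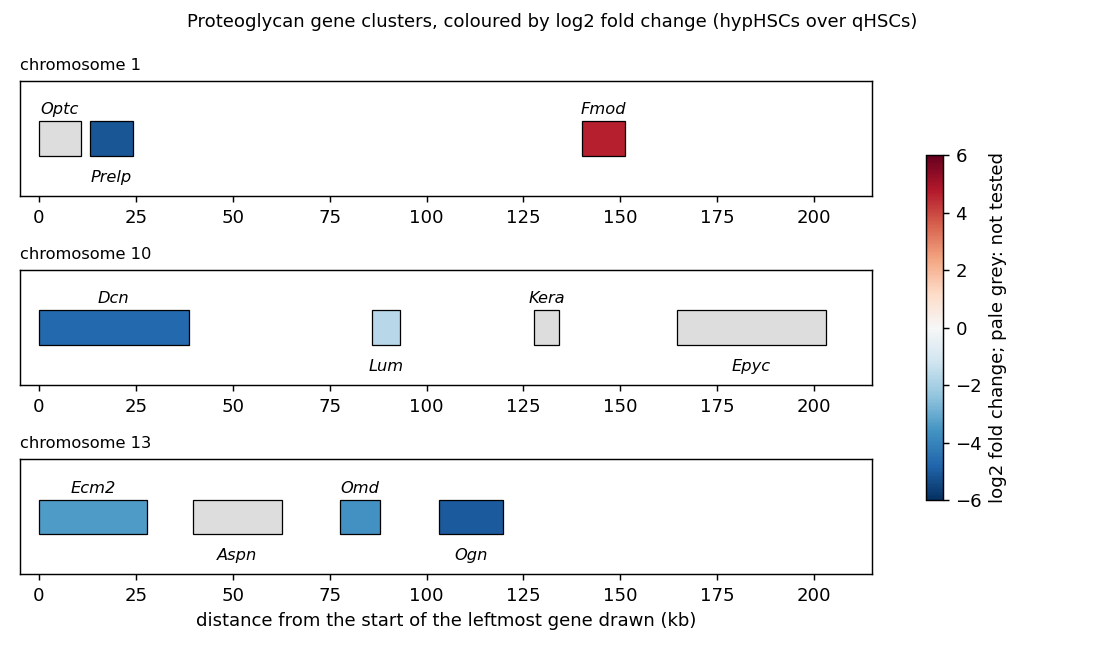
Position of the SLRP genes in their clusters on chromosomes 1, 10 and 13, as distance in kb from the leftmost gene drawn, coloured by log2 fold change (blue lower in hypHSCs, red higher, pale grey not tested). Fmod, at 4.64, stands beside Prelp at -5.15, and the untested Aspn lies between Ecm2 at -3.39 and Omd at -3.62.

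Promoter sequences of cluster members with opposite directions are shown so that the starts of Prelp and Fmod, and of Ogn and Aspn, can be read side by side. Ogn is not next to Aspn but 40.5 kb away, with Omd between them. The genes that flank Aspn, Ecm2 and Omd, were also lower, and their windows are not printed. They are the 250 bases before the start in the RefSeq table for GRCm38.p6, in which 8 of the 10 members had an entry and Dcn and Lum had none. Capitals mark TATAAA and GGAATG (the binding motif of TEAD factors) on either strand. The motifs of AP-1, written TGANTCA, and the CArG box were also searched.
Prelp: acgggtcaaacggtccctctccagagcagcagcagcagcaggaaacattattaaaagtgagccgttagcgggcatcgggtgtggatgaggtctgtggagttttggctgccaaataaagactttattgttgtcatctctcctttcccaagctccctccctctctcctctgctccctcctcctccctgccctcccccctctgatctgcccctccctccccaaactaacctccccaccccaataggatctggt
Fmod: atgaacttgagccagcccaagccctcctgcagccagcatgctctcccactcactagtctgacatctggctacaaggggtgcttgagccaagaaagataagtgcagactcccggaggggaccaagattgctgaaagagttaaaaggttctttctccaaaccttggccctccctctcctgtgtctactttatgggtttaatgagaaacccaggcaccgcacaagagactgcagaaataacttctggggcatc
Ogn: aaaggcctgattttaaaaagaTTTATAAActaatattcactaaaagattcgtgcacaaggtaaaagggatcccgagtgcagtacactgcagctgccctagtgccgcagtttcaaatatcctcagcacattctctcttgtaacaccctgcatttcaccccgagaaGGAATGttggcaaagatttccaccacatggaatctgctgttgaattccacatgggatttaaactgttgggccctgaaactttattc
Aspn: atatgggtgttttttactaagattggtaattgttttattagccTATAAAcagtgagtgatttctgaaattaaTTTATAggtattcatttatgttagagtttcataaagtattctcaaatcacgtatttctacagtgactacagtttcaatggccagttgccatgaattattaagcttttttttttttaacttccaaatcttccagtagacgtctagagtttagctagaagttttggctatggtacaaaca
The Prelp window lies at chr1:133921402-133921651 on the minus strand, that of Fmod at chr1:134037004-134037253, that of Ogn at chr13:49607765-49608014 and that of Aspn at chr13:49544193-49544442, all 3 on the plus strand. Ogn held TATAAA on both strands, overlapping each other, 227 and 229 bases before the start, and GGAATG once, 86 bases before it. Aspn held TATAAA once on each strand, 207 and 178 bases before the start, so the motif occurred in a gene that was lower and in a gene that was higher. TATAAA is found in 12.4% and GGAATG in 12.6% of 32851 promoters of this length, TGANTCA in 6.75% and the CArG box in 1.47%. No searched motif was found in the windows of Prelp and Fmod, or in those of Bgn, Omd, Podn and Ecm2. The share of G and C was 55.6% for Prelp, 51.2% for Fmod, 42% for Ogn and 30% for Aspn, beside a median of 52.4% over all promoters.

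The genes that build, bind and cleave SLRPs were counted by list, and each count is to be read against the 17.8% of all genes tested that were called higher and the 21.7% called lower. Of 18 tested genes for the glycosaminoglycan linker and chain, 3 were higher and 6 lower in hypHSCs (median log2 fold change -0.36). Among them Slc35b3, a transporter of the sulfate donor, was higher by 1.42 and Ugdh, which makes UDP-glucuronate, by 1.11 on the log2 scale. The other gene called higher, Xylt1, was at 49.9 to 114 normalized counts in hypHSCs and 0 to 2.72 in qHSCs. Its log2 value, 5.80, was the largest rise of the list and rests on qHSC libraries at or under 3 reads. Papss2, which makes the sulfate donor, fell by 3.79 and Chpf, a chondroitin polymerising factor, fell by 3.38. Of 9 genes that modify chondroitin and dermatan sulfate, 2 were higher and 3 lower (median -0.60). Chst11, a chondroitin 4-O-sulfotransferase, was higher by 3.64, while the sulfotransferase gene Chst15 fell by 4.38 and the epimerase gene Dsel fell by 1.62. Chst3, also called higher, was at 28.3 to 144 normalized counts in hypHSCs and 0 to 2.36 in qHSCs, where no library exceeded 3 reads. Of 5 keratan sulfate genes, 1 was lower and none higher (median -0.58).

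Against the same 17.8% higher and 21.7% lower over all genes, of 17 tested genes for SLRP-bound collagens and fibril partners, 2 were higher and 8 lower (median -1.04). Col12a1 was higher by 3.39 and Lox, the collagen cross-linking oxidase, by 2.03, whereas Col14a1 fell by 4.91 and Col5a3 fell by 4.14. Of 25 ligands and receptors of SLRPs, 7 were higher and 7 lower (median 0.30, which turned to -0.05 with equal totals and to -0.63 with Hprt, Pgk1 and Actb as the reference). The largest rises were in Met, the receptor tyrosine kinase that decorin binds, at 7.52, and Cd14, a co-receptor of toll-like receptors, at 4.77. Cd14 is also in the macrophage list, and the part of macrophage markers in its rise was not tested. The largest falls were in Bmp4, at -5.53, and in Egfr, also a decorin receptor, at -4.99. Of 18 other proteoglycan core protein genes, 4 were higher and 6 lower (median -0.83), with Col15a1 at 5.83, Srgn, the proteoglycan of leukocyte granules, at 4.46, Tgfbr3 at -5.38 and Gpc4 at -4.49.

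Of 16 genes of proteases known to cleave SLRPs or to act beside them, 8 were higher and 5 lower (median 1.499), beside 17.8% higher and 21.7% lower over all genes tested. Mmp12, the macrophage metalloelastase, was higher by 11.74 on the log2 scale (SE 0.47, limma adjusted p = 3.89e-08). Mmp7 had no read in any qHSC library and was at least 174-fold higher in hypHSCs, against a floor of 3 reads per library, or at least 83.0-fold without hypHSC 1. Adamts1 fell by 5.22 and Pcolce, the enhancer of procollagen processing, fell by 4.27. As macrophage markers were higher in the same libraries, their part in these rises was not tested.

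By its profile over the 10 libraries, Dcn was closest to Gja1, the connexin 43 gene, with a root mean square distance of 0.162 on the log2 scale among 11539 genes compared, followed by Gpc4 at 0.219 and Inmt at 0.239. Prelp was closest to Eng, the endoglin gene, at 0.189, and Bgn to Ltbp4, a latent TGFβ-binding protein gene, at 0.232. Lum was closest to Arl6 at 0.192. Ogn was closest to Fam171b at 0.417, Omd to Vstm4 at 0.396, Podn to Peg3 at 0.374 and Ecm2 to Triqk at 0.425. Fmod had no near neighbour, and the 3 genes closest to it, Havcr2 at 0.718, Rhoh at 0.727 and Acod1 at 0.852, are known from immune cells. The distances describe likeness over libraries that fall into 2 groups and are given with no test.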

How the data were processed

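RNA of sorted hypHSCs and qHSCs was amplified from oligo-dT primed cDNA and sequenced as unstranded paired reads. Per the labels and the methods, the authors mapped reads to mm39 with STAR, counted them per gene with featureCounts (Subread 1.5.0) and divided them by DESeq2 size factors. The deposited values are thus a signal, the normalized count. Whole reads were recovered for 100% of values (tolerance 0.02 read), with size factors of 0.661 to 1.20 in hypHSCs and 1.10 to 1.33 in qHSCs, and 3 reads correspond to 2.25 to 4.54 normalized counts. Of 62322 entries, 37089 without a symbol were left out (8.98% to 29.1% of reads).

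Genes that reached 10 normalized counts in 5 or more libraries were compared as log2(normalized count + 1) with limma 3.58.1 (trend) in R 4.3.3, adjusted by Benjamini-Hochberg over 14630 genes. A larger pseudocount shrinks the fold changes of low genes, with a log2 value for Fmod of 4.88 at a pseudocount of 0.5 and 3.53 at 10. Beside DESeq2, the limma values of members differed in both directions, for high as well as low genes. They were larger in size for Bgn (-4.71 against -4.01), Prelp (-5.15 against -4.69), Fmod (4.64 against 4.06) and Podn (-4.79 against -4.29). For Omd both gave -3.62. For Aspn, with no filter beyond 1 read, limma gave 3.76 and DESeq2 5.22. Ratios and sums were tested by exact two-sided permutation over 252 arrangements (scipy 1.17.1). FPKM used the recovered reads after size-factor scaling, GENCODE vM39 exon lengths on GRCm39, and 1 library total, the mean over libraries. DESeq2 1.42.0 and edgeR 4.0.16 on the recovered reads, other scalings, filters and pseudocounts, and single libraries left out were alternatives. Named genes were all members, the 2 largest rises and falls among called genes of each list whose mean reached 100 normalized counts in either group, listed genes within 200 kb of a member, and the closest profiles among genes at that level. Xylt1, Chst3 and some listed markers are named outside this rule. The members and lists were chosen with earlier results of these data known. The fits were tested on simulated data.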

Additional observations from a re-analysis of the deposited data

Results flagged for a closer look

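The summed SLRP level of hypHSC 1, 196 FPKM, stood above the other hypHSC libraries, which lay between 111 and 130 FPKM. On the log2 scale, its gap to the next library was 0.733 of the range of the group, past Dixon's critical value of 0.710 for 5 samples. Chance alone gives such a value in about 1 in 20 groups, and 26 groups were examined. The same library was the highest hypHSC library for the summed quiescent HSC (21002), portal fibroblast (20094, mostly Dpt) and mesothelial (1761) markers. It also held the largest share of mitochondrial reads (12.8%). The part of these in its SLRP level was not tested. Without hypHSC 1, hypHSCs stayed below qHSCs in the sum, as every single-library omission left the log2 difference between -4.13 and -3.90.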

How the results depend on the processing

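The 8 members called lower were called lower under all 26 alternatives, and Fmod was called higher under all of them. Members called higher numbered 2, with Aspn, when no filter beyond 1 read was used and with DESeq2. On the recovered reads, DESeq2 called 3107 genes lower and 3494 higher and edgeR 2550 and 2786. Over all genes, calls moved to 6990 lower and 1472 higher when libraries were scaled to Hprt, Pgk1 and Actb, which shifted the median log2 fold change of all genes from -0.20 to -1.12 (-0.54 with equal totals), to 1626 and 1465 with limma's test against a minimum fold change, and to 5380 and 3911 with entries without a symbol included, an alternative chosen after seeing the data, as were leaving out hypHSC 4 and 5 together and the canonical lengths. Leaving out 1 library at a time gave 8 members lower and 1 higher in each of 10 fits, 2809 to 3286 genes lower and 2432 to 2716 higher, and log2 differences of -4.13 to -3.90 for the SLRP sum, -4.39 to -3.91 for Dcn over Col3a1, and differences in the Dcn share of -27.5 to -21.6 percentage points. With libraries paired by replicate number as a block, sign flips over 5 pairs cannot go below p = 0.0625, which was the exact p of the sum (-3.99), the Dcn share (-24.7) and Dcn over Col3a1 (-4.12). In limma the block left all 9 members called, with 3229 genes lower and 2557 higher. Same-numbered libraries share only a number: their deviations correlated at 0.00815 to 0.129, and 1 pair of 5, the libraries numbered 5, correlated best with its own number. Depth limits Aspn, Fmod in qHSCs, and Omd, Podn and Ecm2 in hypHSCs, where single libraries hold fewer than 20 reads.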
